A study of Mus musculus with 24 samples.

Results

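Mouse eosinophils grown from bone marrow and kept overnight with interleukin-10 (IL-10) and the growth factor GM-CSF (granulocyte-macrophage colony-stimulating factor) were compared with eosinophils that received neither cytokine. The comparison rests on 6 of the 24 libraries of the series. They are the 3 wild-type libraries titled for both cytokines and the 3 titled as wild-type controls, chosen by title alone, and all genes with enough counts were examined. All cells were C57BL/6 and wild type. SCF (stem cell factor) and FLT3L, at 100 ng/ml, were given until day 4, followed by IL-5 at 10 ng/ml, and after removal of dead cells on day 13 all stayed in IL-5 overnight. In the treated group GM-CSF was added at 20 ng/ml together with IL-10, whose dose the labels do not state, and the untreated group received IL-5 only. To say which cytokine went with a change, the 3 wild-type libraries with GM-CSF alone and the 3 with IL-10 alone were used beside them. The remaining 12 libraries, from cells labelled Csf2ra-/- or Irf5-/-, entered no comparison. They were used in the filter on low counts, the scaling between libraries and the estimate of the spread. The cells are a culture model without tissue, and the labels do not say whether the 3 libraries of a group came from separate animals or cultures, so p-values measure only the spread between these libraries.

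GM-CSF and IL-5 bind receptors that share a beta chain and signal through JAK2 and STAT5, and both prolong eosinophil survival. GM-CSF also switches on genes by which myeloid cells attract and stimulate lymphocytes. IL-10 binds a receptor linked to JAK1 and TYK2 and acts mainly through STAT3; in macrophages it restrains inflammatory cytokines such as TNF and raises feedback genes such as Socs3 and Bcl3. The pair therefore joins a cytokine known for activation with one known for restraint, both acting here on cells already held in IL-5.

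The 6 libraries held 11881294 to 18709153 counts and 13833 to 15196 detected genes, and the granule protein genes of eosinophils were abundant, Prg2 at 39400 to 43800 and Epx at 13300 to 16200 CPM, the count of a gene relative to its library total. Replicate 3 with both cytokines stood apart from its group, with the most detected genes and a Col1a1 level of 4.92 CPM. The summed CPM of 4 Y-linked genes was 186, 45.8 and 174 with both cytokines, against 175, 56.9 and 50.7 in untreated cells. The levels above, the sums of marker lists and the levels of Cd209a, Zbtb46, Clec9a, Flt3, Xcr1 and Mrc1 are CPM without further scaling. All other levels are CPM after TMM scaling, which removes a common shift between libraries. Fold changes are log2 values ± SE with adjusted p-values from edgeR's quasi-likelihood test, Benjamini-Hochberg adjusted over 11885 genes. A gene is called at an adjusted p under 0.05.

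GM-CSF with IL-10 raised chemokine genes, led by Ccl24 and Ccl17, together with the type 2 cytokine gene Il13, the mannan receptor gene Clec4n and genes called in the IL-10 main effect such as Bcl3 and Pim2, and it lowered a smaller set led by Igf1. In all, 178 genes (1.5% of those tested) were called against untreated cells. Of these, 137 (1.15%) were higher with both cytokines and 41 (0.345%) were lower, and 83 of the higher and 14 of the lower genes differed at least 2-fold. In all 178 the 3 treated libraries lay wholly above or wholly below the 3 untreated ones, which held for 16% of all tested genes (8.46% higher and 7.53% lower). A lack of overlap given below for a called gene therefore describes its levels and adds no support to its call. The median log2 fold change of all tested genes was 0.00427. When the Y-linked level entered the fit as a covariate, 168 genes were called, and as 2 classes 190. The number of calls was 80 without untreated replicate 2, 75 without untreated replicate 3 and 117 when only the 6 libraries were fitted.

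The 4 wild-type groups form a 2 by 2 layout, so the combined effect on the log2 scale is the sum of a GM-CSF main effect (the 2 groups with GM-CSF against the 2 without) and an IL-10 main effect (the 2 with IL-10 against the 2 without). GM-CSF called 302 genes (2.54%) in its main effect, 221 higher (1.86%) and 81 lower (0.682%). IL-10 called 41 genes (0.345%), 40 higher (0.337%) and 1, Tnf, lower. Among the 137 genes higher with both cytokines, 88 were called in the GM-CSF main effect alone, 21 in the IL-10 main effect alone, 9 in both and 19 in neither. Among the 41 lower genes, 28 were called in the GM-CSF main effect and 13 in neither. No gene lowered by the pair was called in the IL-10 main effect. The GM-CSF count was 188, 192, 199 and 201 without IL-10 replicate 1, untreated replicate 2, IL-10 replicate 2 and untreated replicate 3, and the IL-10 count 26, 27 and 27 without untreated replicate 3, replicate 2 with both cytokines and IL-10 replicate 2.

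**Figure D1:**
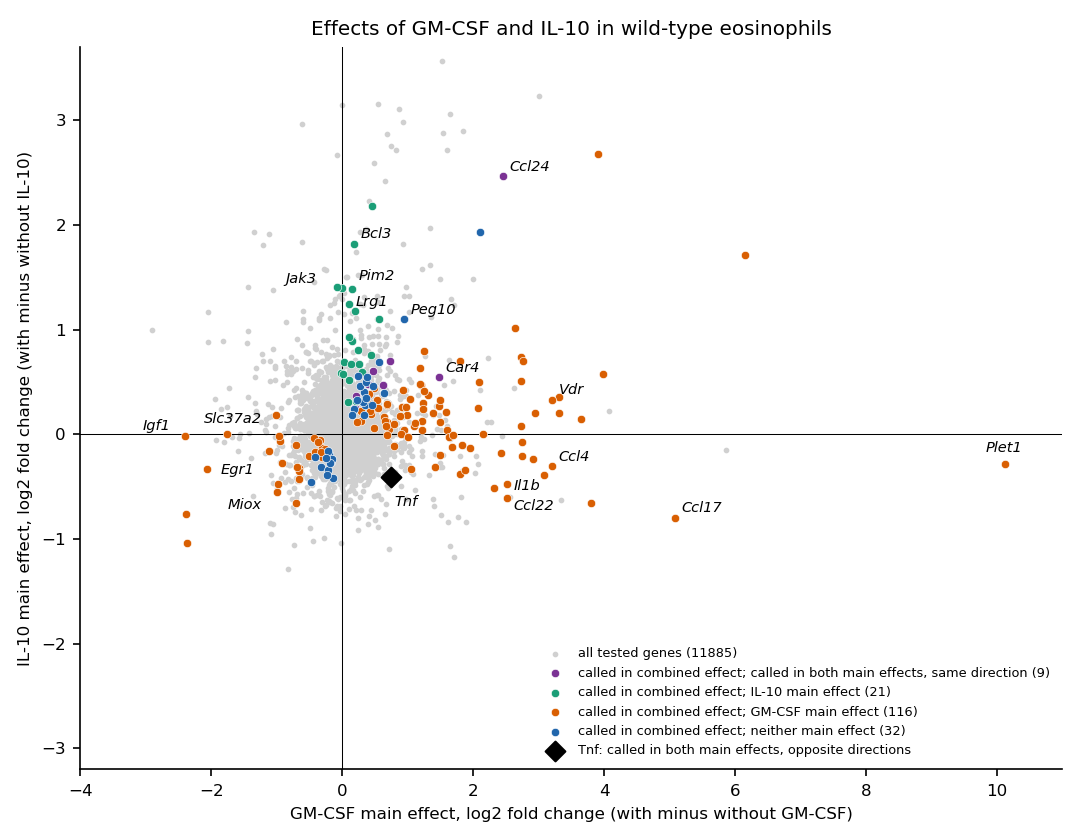
Each point is a gene, placed by its GM-CSF main effect (horizontal axis, log2 fold change) and its IL-10 main effect (vertical axis, log2 fold change); coloured points are the 178 genes called with both cytokines against untreated, and 1 uncalled gene lies outside the axes. The 116 genes of the GM-CSF class spread along the horizontal axis, the 21 of the IL-10 class along the vertical axis, Ccl24 lies high on both, and Tnf lies below zero on the vertical axis.

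Both cytokines moved 10 genes, 9 of them upward with each (0.0757% of tested genes) and 1, Tnf, in opposite directions (0.00841%). The 9 cover a chemokine (Ccl24), a feedback inhibitor of cytokine signalling (Socs3), an amino acid transporter (Slc7a5), 2 enzymes of small molecules (Ada and Car4), a metabolite receptor (Ffar2), 2 genes of the endoplasmic reticulum (Pdia4 and Vmp1) and the predicted gene Gm49339. Gm49339 overlaps the near-identical immunoglobulin-like receptor genes Lilr4b and Lilrb4a on the same strand, and its value is uncertain.

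Ccl24 (ENSMUSG00000004814, GRCm38 chromosome 5, 135569937 to 135573049) encodes eotaxin-2, a chemokine that attracts eosinophils through CCR3. It stood at 46.5, 60.7 and 26.3 CPM with both cytokines, 11.4, 7.07 and 15.3 with GM-CSF, 11.4, 12.8 and 9.55 with IL-10 and 1.83, 1.38 and 1.12 in untreated cells. The libraries of either single cytokine lay above all untreated libraries and below all libraries with both. The combined log2 fold change was 4.92 ± 0.46 (adjusted p = 2.52e-06), made up of a GM-CSF main effect of 2.46 ± 0.29 (adjusted p = 1.74e-05) and an IL-10 main effect of 2.47 ± 0.29 (adjusted p = 0.000257). It was also the gene called for each cytokine alone against untreated cells and for each cytokine added to the other.

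Socs3 (ENSMUSG00000053113, chromosome 11, 117966079 to 117970047), whose protein blocks cytokine receptors and JAK kinases, had 73.2, 91.8 and 51.2 CPM with both cytokines, 36.9, 39.6 and 51.8 with GM-CSF, 43, 45.4 and 37 with IL-10 and 21.3, 29.1 and 30.3 untreated. All single-cytokine libraries lay above the untreated ones, and replicate 3 with both cytokines fell within the range of GM-CSF alone. The combined log2 fold change was 1.42 ± 0.21 (adjusted p = 0.000433), with 0.73 from GM-CSF and 0.70 from IL-10. Slc7a5 (ENSMUSG00000040010, chromosome 8, 121881150 to 121907694) encodes the LAT1 subunit that imports large neutral amino acids. Its levels were 136, 123 and 111 CPM with both cytokines, 92.7, 79.6 and 79.3 with GM-CSF, 83.8, 88.5 and 103 with IL-10 and 69.1, 53.4 and 52.6 untreated, and all treated libraries exceeded all untreated ones. Its combined log2 fold change was 1.08 ± 0.13 (adjusted p = 3.5e-05), with 0.47 from GM-CSF and 0.61 from IL-10.

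Ada (ENSMUSG00000017697, chromosome 2, 163726584 to 163750239) encodes adenosine deaminase, which turns adenosine into inosine. It reached 90.5, 78.3 and 110.3 CPM with both cytokines, 64.3, 75.7 and 51.9 with GM-CSF, 48.5, 57.2 and 67.4 with IL-10 and 48.7, 39.6 and 41.9 untreated; the libraries with both cytokines lay above all others, and IL-10 alone overlapped untreated. Its combined log2 fold change was 1.10 ± 0.15 (adjusted p = 0.000127). Car4 (ENSMUSG00000000805, chromosome 11, 84957786 to 84966044), a carbonic anhydrase anchored on the cell surface, was carried more by GM-CSF. Its levels were 285, 450.2 and 397 CPM with both cytokines, 210.1, 298 and 278 with GM-CSF, 141, 144 and 127 with IL-10 and 76.3, 93.5 and 107 untreated, in 4 steps of which only the upper 2 groups overlapped. The combined log2 fold change was 2.03 ± 0.17 (adjusted p = 6.11e-07), with 1.48 from GM-CSF and 0.55 from IL-10.

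Ffar2 (ENSMUSG00000051314), a receptor for short-chain fatty acids, leaned towards IL-10, with main effects of 0.59 for IL-10 and 0.32 for GM-CSF and levels of 249, 262 and 297 CPM with both cytokines against 148, 133 and 149.7 untreated. Vmp1 (ENSMUSG00000018171), a membrane protein needed for autophagy whose 3' end also holds the miRNA gene Mir21a, had 84, 85.5 and 82.6 CPM with both cytokines against 54.4, 54.6 and 59.7 untreated. Pdia4 (ENSMUSG00000025823), a disulfide isomerase that folds secreted proteins, had 726, 744 and 714 CPM with both cytokines against 548, 512 and 539.6 untreated. In these 3 genes all libraries with both cytokines lay above all untreated ones, with combined log2 fold changes of 0.91 ± 0.12, 0.58 ± 0.08 and 0.45 ± 0.07. Gm49339 averaged 552 ± 23.8 CPM with both cytokines and 300.4 ± 13.5 CPM untreated (SD, n = 3 each), and the overlapping Lilrb4a and Lilr4b averaged 881 and 647 CPM with both cytokines against 484 and 390.3 CPM untreated. The Lilr4b call was lost when any 1 of the 6 libraries was left out.

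**Figure D2:**
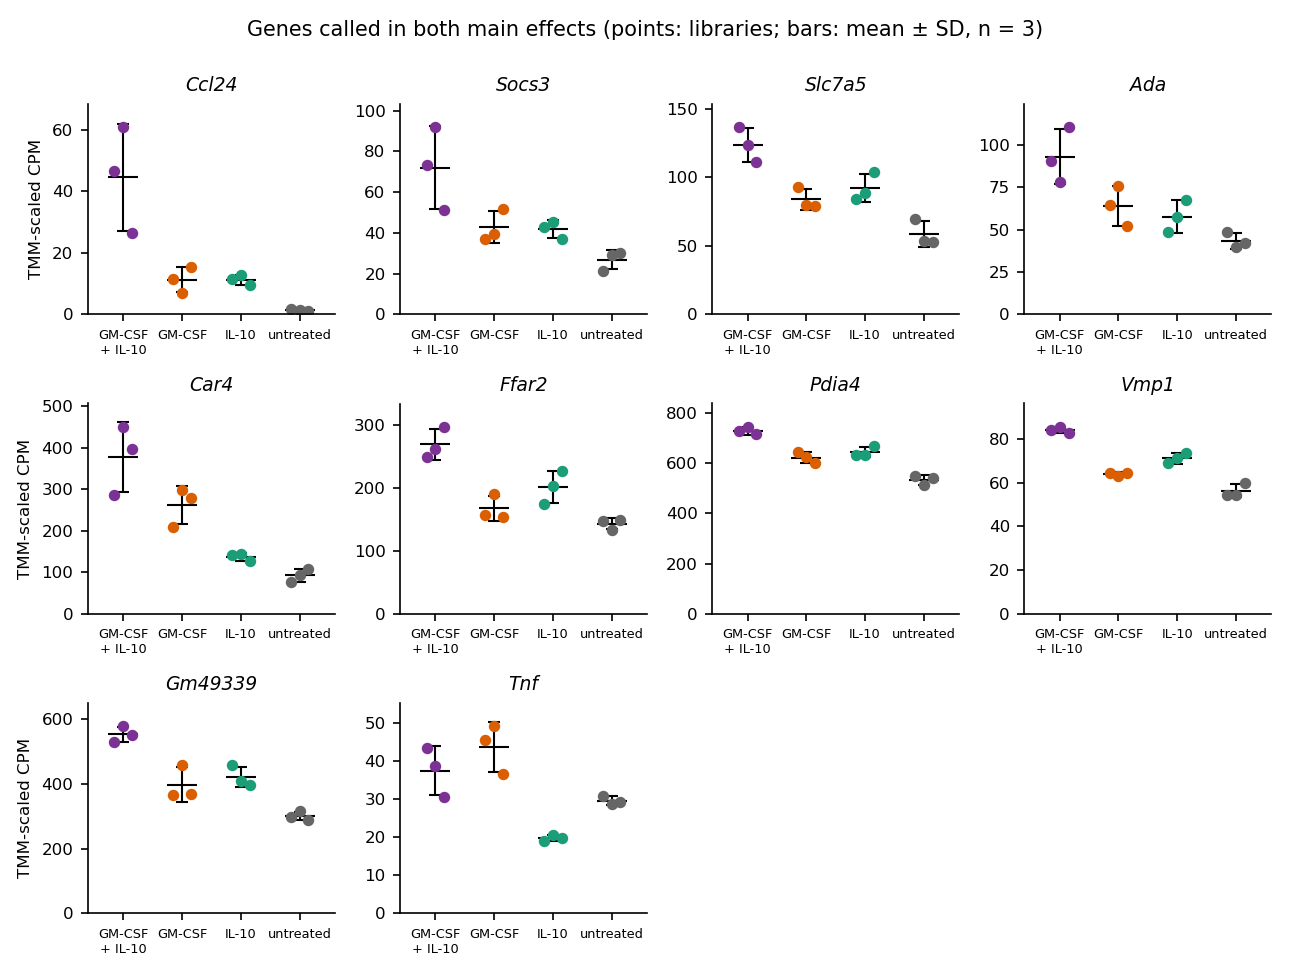
TMM-scaled CPM of the 10 genes called in both main effects, in the 4 wild-type groups (points are libraries, bars the mean ± SD of 3); every axis starts at 0. In the 9 genes moved the same way the group with both cytokines is highest and the untreated group lowest, and for Tnf IL-10 alone is lowest and GM-CSF alone highest.

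Most of the 9 genes had a call close to the threshold in at least 1 main effect. The IL-10 calls of Socs3, Car4 and Ada (adjusted p = 0.036, 0.036 and 0.0395) were lost in 10, 10 and 9 of 22 alternative fits. The GM-CSF calls of Vmp1 and Ffar2 (adjusted p = 0.0496 and 0.0338) were lost in 16 and 9 of the 22. Pdia4 lost its GM-CSF call (adjusted p = 0.0397) in 14 and its IL-10 call (adjusted p = 0.0315) in 11, and Gm49339 (adjusted p = 0.036 and 0.0348) in 12 and 9. Ccl24 and Slc7a5 kept both calls in each of the 12 fits that left out 1 wild-type library. The number of genes moved the same way was 2 without untreated replicate 2 or IL-10 replicate 2, 3 without untreated replicate 3 or IL-10 replicate 1, 4 without GM-CSF replicate 1 or 3, and 5 without replicate 2 or 3 with both cytokines or IL-10 replicate 3.

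STAT3 and STAT5 both bind the palindrome TTCNNNGAA. The 250 bases before the RefSeq start sites of the genes moved by both cytokines were therefore searched for it, on both strands (which a palindrome reads alike); the motif overlapped no other one searched in the sequences shown. Of the 10 genes, 7 had a promoter window, 12 windows in all, and the motif stood in 2 windows (16.7%), those of Ada and Socs3. Among all 32851 RefSeq windows of the same length 7.02% held it. The AP-1 motif TGANTCA stood in 1 of the 12 windows, of Ffar2, against 6.75% of all windows. The NF-kB motif stood in 3 of the 12, of Ada, Car4 and Vmp1, against 7.25% of all windows. The STAT motif also stood in the window of Ccl17, which had the largest rise after Plet1 and Ccl24 among genes of at least 5 CPM in the higher group. These windows are shown because they belong to the genes with the motif among those moved by both cytokines and to a leading GM-CSF gene; they are from GRCm38.p6, run 5′ to 3′ on the gene's strand and end at the base before the start, and capitals mark the motif. The Socs3 window precedes the RefSeq start used but lies inside the annotated gene, whose span on the minus strand begins upstream, at 117970047. A match describes the sequence only.
Socs3, chr11:117969367-117969616, minus strand: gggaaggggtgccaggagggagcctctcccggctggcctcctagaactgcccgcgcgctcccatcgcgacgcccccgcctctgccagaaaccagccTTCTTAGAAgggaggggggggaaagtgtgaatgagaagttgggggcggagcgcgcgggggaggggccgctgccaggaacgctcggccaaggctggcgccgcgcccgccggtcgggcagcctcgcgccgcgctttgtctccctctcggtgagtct
Ada, chr2:163750240-163750489, minus strand: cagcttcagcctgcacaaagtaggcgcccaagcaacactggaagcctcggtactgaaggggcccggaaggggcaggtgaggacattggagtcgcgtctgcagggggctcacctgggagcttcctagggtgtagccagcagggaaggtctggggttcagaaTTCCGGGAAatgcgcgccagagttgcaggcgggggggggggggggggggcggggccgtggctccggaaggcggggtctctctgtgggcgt
Ccl17, chr8:94810203-94810452, plus strand: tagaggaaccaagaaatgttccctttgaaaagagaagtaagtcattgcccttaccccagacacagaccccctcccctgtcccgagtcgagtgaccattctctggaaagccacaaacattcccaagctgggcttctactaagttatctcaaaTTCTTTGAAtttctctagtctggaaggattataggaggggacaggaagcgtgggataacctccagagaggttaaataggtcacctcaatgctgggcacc
Counted by gene instead of by window, 2 of 7 genes moved by both cytokines (28.6%) held the STAT motif. Of the genes called in the IL-10 main effect alone 1 of 18 (5.56%) held it, Sbno2. Among those called in the GM-CSF main effect alone it was 4 of 69 (5.8%), against 8.13% of all 27025 genes with a window. Counted by window, the IL-10 set had 2 of 22 (9.09%) and the GM-CSF set 4 of 82 (4.88%), against 7.02% of all windows.

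Tnf (ENSMUSG00000024401, chromosome 17, 35199381 to 35202007), the inflammatory cytokine, was the gene moved in opposite directions. It stood at 43.2, 38.6 and 30.4 CPM with both cytokines, 45.5, 49 and 36.4 with GM-CSF, 18.9, 20.4 and 19.7 with IL-10 and 30.8, 28.6 and 29.2 in untreated cells. All libraries with GM-CSF lay above all with IL-10 alone, and the libraries with both cytokines overlapped GM-CSF alone and reached down to the untreated level. GM-CSF raised Tnf by 0.74 ± 0.08 (adjusted p = 5.66e-06) and IL-10 lowered it by a log2 fold change of -0.41 ± 0.08 (adjusted p = 0.0285). The pair against untreated gave 0.34 ± 0.12, which was not called (adjusted p = 0.206). The IL-10 call of Tnf was lost in 12 of 22 alternative fits, with adjusted p up to 0.187, among them those without any 1 untreated library, replicate 2 or 3 with both cytokines, GM-CSF replicate 1 or 2, or any 1 IL-10 library. The count of opposite genes was 0 in these fits except without IL-10 replicate 3, where Cd300ld took the place of Tnf. It was 2 without replicate 1 with both cytokines (Cd300ld and Tnf) or GM-CSF replicate 3 (Enpp1 and Tnf).

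Among the lists examined, which were chosen with earlier results of these data known, chemokine genes had the largest share of called members. Of 13 tested, in a list of 21, 8 were higher and none was lower. The median log2 fold change of the 13 was 1.28, against 0.00427 over all tested genes. Besides Ccl24 the 8 were Ccl17 and Ccl22, which attract T cells through CCR4, the inflammatory chemokines Ccl3, Ccl4 and Ccl9, the monocyte attractant Ccl2 and the neutrophil attractant Cxcl2. Unlike Ccl24, the other 7 were called in the GM-CSF main effect and not in that of IL-10, a difference in calls that was not itself tested. Without untreated replicate 2 the count was 4 of 13. Over all tested genes 1.15% were called higher and 0.345% lower, shares to set beside this and the list counts below. In each list, members with too few counts were not tested. The count filter passes a gene that is high in some groups only, which can raise the shares of called members.

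Ccl17 (ENSMUSG00000031780, chromosome 8, 94810453 to 94812036) had 96.5, 117 and 45.7 CPM with both cytokines, 153, 79.6 and 174 with GM-CSF, 2.41, 2.67 and 1.72 with IL-10 and 3.85, 4.13 and 5.31 untreated. The groups with and without GM-CSF were far apart, and replicate 3 was the lowest of those with both cytokines. Its combined log2 fold change was 4.28 ± 0.41 (adjusted p = 5.63e-06), with a GM-CSF main effect of 5.08 ± 0.30 and an IL-10 main effect of -0.80 ± 0.30, the second not called (adjusted p = 0.521). Ccl22 (ENSMUSG00000031779) had 165, 190.1 and 100.5 CPM with both cytokines, 209, 151 and 179 with GM-CSF, 18.7, 15.5 and 27.6 with IL-10 and 61.9, 29.7 and 28.4 untreated. The libraries with both cytokines all exceeded the untreated ones, of which replicate 1 was the highest. Its combined log2 fold change was 1.92 ± 0.35 (adjusted p = 0.00485), and the call was lost without untreated replicate 2 or 3 (adjusted p = 0.0561 and 0.0545).

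Ccl4 (ENSMUSG00000018930) stood at 60.9, 54.5 and 31.4 CPM with both cytokines, 56, 41.6 and 41.9 with GM-CSF, 2.94, 4.01 and 5.42 with IL-10 and 8.95, 5.51 and 5.01 untreated, a combined log2 fold change of 2.90 ± 0.26 (adjusted p = 9.85e-07). Its neighbour Ccl3 had 76.2, 69.2 and 70.2 CPM with both cytokines, 74.1, 76.3 and 64.8 with GM-CSF, 28.4, 29.4 and 24.7 with IL-10 and 39.6, 39.1 and 51.7 untreated. For both genes the groups with GM-CSF overlapped each other and lay above the groups without it. Cxcl2 had 39.4, 41.1 and 23.8 CPM with both cytokines against 15.8, 13.6 and 13.1 untreated, a log2 fold change of 1.29 ± 0.18 (adjusted p = 0.000225). Ccl2 and Ccl9 had log2 fold changes of 1.69 ± 0.35 and 0.96 ± 0.24 (adjusted p = 0.012 and 0.0408). The calls of Ccl2 and Ccl9 were lost without untreated replicate 1 or 2 or replicate 2 with both cytokines, that of Ccl9 also without untreated replicate 3, and that of Ccl3 without untreated replicate 2.

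Ccl17, Ccl22, Itgax and Irf4 are also markers of dendritic cells. The summed level of the other 12 genes of the dendritic cell list was 459.9, 551.9 and 258.2 CPM with both cytokines, 462, 264.6 and 560.5 CPM with GM-CSF alone and 366.4, 361.7 and 351.8 CPM untreated. Ccl24, Ccl17, Ccl22, Irf4, Plet1 and Vdr were likewise lowest in replicate 3 of the libraries with both cytokines and in replicate 2 of those with GM-CSF alone. Other genes higher in the GM-CSF main effect differed. Il13 and Ada were highest in these same libraries of their groups, and Car4 was lowest in replicate 1 of both groups. In the dendritic cell list Cd209a reached 0.748 to 11.6 CPM with both cytokines against 0.796 to 1.09 CPM untreated. Zbtb46 had 1.44 to 1.77 CPM against 0.216 to 0.842 CPM, and Clec9a 0.267 to 1.21 CPM against 0.199 to 0.863 CPM. Flt3 leaned the other way, with 2.06 to 2.81 CPM against 2.52 to 3.19 CPM, and Xcr1 was at 0 in all 6 libraries. The part of such cells in these results was not tested, and in bulk RNA a change in their number cannot be told apart from a change in RNA per cell. Without replicate 3 with both cytokines the log2 fold change of Ccl17 was 4.59 (adjusted p = 5.28e-07) and that of Ccl24 5.20 (adjusted p = 5.28e-07).

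Il1b and Il13 were the called members of the 2 cytokine lists, and both were higher. Of 10 inflammatory cytokines tested, in a list of 16, 1 was higher, with a median of 0.429. Il1b (ENSMUSG00000027398) had 15.7, 15.6 and 8.54 CPM with both cytokines, 15.7, 11.2 and 8.32 with GM-CSF, 1.61, 1.2 and 1.64 with IL-10 and 4.64, 2.76 and 2.17 untreated. Both GM-CSF groups lay above both groups without it, and the combined log2 fold change was 2.03 ± 0.33 (adjusted p = 0.00101). Of 3 type 2 and regulatory cytokines tested, in a list of 11, Il13 (ENSMUSG00000020383) was higher. This driver of mucus and remodelling in type 2 immunity had 14.9, 14.3 and 17.5 CPM with both cytokines, 11.3, 17.5 and 9.55 with GM-CSF, 5.22, 6.42 and 5.42 with IL-10 and 4.51, 4.48 and 4.26 untreated. The untreated libraries lay within a narrow range well below all libraries with GM-CSF, and the combined log2 fold change was 1.82 ± 0.22 (adjusted p = 5.14e-05). Inhba, which encodes the subunit of activin A, had 15.8, 10.4 and 7.91 CPM with both cytokines against 2.88, 0.603 and 1.2 untreated (log2 fold change 2.80 ± 0.35, adjusted p = 8.94e-05), and 3.62 without untreated replicate 1. Edn1, the precursor of the vessel-constricting peptide endothelin-1, had 6.88, 5.82 and 3.72 CPM with both cytokines against 1.76, 0.861 and 0.748 CPM untreated, and its call was lost without untreated replicate 2 or 3 (adjusted p = 0.0639 and 0.0663).

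Surface and recognition receptors rose as a few genes among many. Of 25 pattern recognition and Fc receptors 3 were higher and none lower, with a median of 0.0721. Clec4n (ENSMUSG00000023349), which encodes the fungal mannan receptor Dectin-2, had 36, 35.8 and 26.9 CPM with both cytokines, 43.9, 32.9 and 36.9 with GM-CSF, 3.48, 2.87 and 3.96 with IL-10 and 7.78, 3.7 and 3.59 untreated, a combined log2 fold change of 2.69 ± 0.28 (adjusted p = 9.78e-06). The bacterial lipoprotein receptor Tlr2 had 15.2, 17.6 and 13.7 CPM with both cytokines against 6.34, 5.34 and 3.51 untreated (log2 fold change 1.61 ± 0.19, adjusted p = 3.5e-05). In neither gene did the 2 groups overlap, as in all called genes. Clec5a, a receptor that signals through DAP12, was the third, and its call was lost without untreated replicate 2 or 3 or replicate 1 with both cytokines. Of 12 costimulatory and checkpoint ligands 3 were higher and none lower. They were Tnfsf4 (OX40 ligand; 3.11, 1.96 and 2.1 CPM with both cytokines against 0.261, 0.603 and 0.748 CPM untreated, log2 fold change 2.16 ± 0.36), Pdcd1lg2 (PD-L2; 5.7, 7.35 and 3.98 CPM with both cytokines against 1.9, 1.72 and 1.72 CPM untreated, log2 fold change 1.66 ± 0.29) and Cd40, whose call was lost without any 1 untreated library or replicate 1 or 2 with both cytokines. None of 11 tested genes of MHC class II presentation was called, with a median of 0.218.

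Plet1 (ENSMUSG00000032068, chromosome 9, 50494525 to 50505482), a surface protein anchored by lipid, was close to undetected without GM-CSF. Its levels were 33.5, 48.7 and 11.1 CPM with both cytokines, 48.2, 15.8 and 71.2 with GM-CSF, 0.0669, 0 and 0 with IL-10 and 0, 0 and 0.0748 untreated. The 3 libraries with both cytokines held 1333 counts and the 3 untreated ones 1 count, a depth-corrected ratio of 1180 with an exact 95% interval of 212 to 46800 that covers counting error only. The call of Plet1 (adjusted p = 0.000225) was lost with limma-voom (adjusted p = 0.155). Rbp4, the carrier of retinol, held 94 counts with both cytokines and 0 untreated. With the untreated group set at 3 counts over its 3 libraries it was 27.8-fold higher. The exact 95% lower limit of the ratio was 22.2. The serotonin receptor gene Htr7 held 38 counts against 0, 11.3-fold higher with the same 3 counts set, and its exact lower limit was 8.71.

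Itgax, the integrin chain CD11c, had 68.8, 86.1 and 69.2 CPM with both cytokines against 49.9, 46.9 and 42.2 untreated (log2 fold change 0.69 ± 0.11, adjusted p = 0.00131). The receptor list of cytokines and growth factors had 3 higher and 1 lower of 27 tested, with a median of -0.0645. The 3 were Il4ra and Il1rl1, described with IL-10 below, and Il21r, the receptor for IL-21 (20.3, 19.7 and 17.6 CPM with both cytokines against 10.6, 11.6 and 10.8 CPM untreated, log2 fold change 0.80 ± 0.12). Of 22 chemoattractant receptors 3 were higher, namely Ffar2, Gpr15 and Cxcr2; the Gpr15 call was lost without untreated replicate 2 or 3 or replicate 1 or 2 with both cytokines. Cxcr2, a receptor for CXC chemokines, had 100.1, 119 and 146 CPM with both cytokines, 76.4, 113 and 79.2 with GM-CSF, 90.1, 90.9 and 80.4 with IL-10 and 60.6, 62.2 and 69 untreated. All libraries of the 3 treated groups exceeded all untreated ones; GM-CSF was called in its main effect (0.49, adjusted p = 0.00807) and IL-10 was not (0.44, adjusted p = 0.0616).

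Among regulators of transcription and of remodelling, Vdr (ENSMUSG00000022479), the nuclear receptor of vitamin D, had 5.62, 9.02 and 3.15 CPM with both cytokines, 5.03, 2.47 and 5.07 with GM-CSF, 0.335, 0.601 and 0.775 with IL-10 and 0.457, 0.517 and 0.523 untreated. The groups with GM-CSF stood apart from those without, and the combined log2 fold change was 3.54 ± 0.49 (adjusted p = 0.000195). Irf4, a factor of lymphoid and dendritic cells, had 21.2, 20.5 and 11.1 CPM with both cytokines against 7.19, 5.17 and 4.79 CPM untreated and was the 1 called of 9 interferon regulatory factors; its call was lost without untreated replicate 2 or 3 or replicate 1 or 2 with both cytokines. The orphan receptor Nr4a3 had 11.2, 10.3 and 8.65 CPM with both cytokines against 4.77, 1.89 and 2.24 CPM untreated (log2 fold change 1.72 ± 0.28, adjusted p = 0.000888). In the list of alternative activation and tissue remodelling 4 of 27 were higher and 1, Igf1, was lower, with a median of 0.418. Spp1 (osteopontin), which overlaps the annotated gene Gm42793, had 251, 220.4 and 192 CPM with both cytokines against 106, 64.8 and 65.8 untreated (log2 fold change 1.48 ± 0.19, adjusted p = 0.000124). Hbegf, a ligand of the EGF receptor, had 9.92, 13.2 and 8.8 CPM with both cytokines against 3.46, 2.76 and 3.21 CPM untreated, the chitinase-like gene Chil3 had 90.4, 81 and 57.8 CPM with both cytokines against 38.4, 26.8 and 22.7 CPM untreated, and the elastase gene Mmp12 was the fourth. Rai14, which encodes an actin-binding protein, had 16.7, 13.2 and 8.75 CPM with both cytokines against 3.92, 1.64 and 1.94 CPM untreated (log2 fold change 2.33 ± 0.37, adjusted p = 0.000868), and Wfdc17, a small secreted protein of macrophages, 10.4, 14.3 and 5.56 CPM with both cytokines against 2.55, 2.33 and 2.39 CPM untreated (log2 fold change 2.04 ± 0.36, adjusted p = 0.00225). As in all called genes, no library with both cytokines reached down to an untreated one in either gene.

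STAT5 target and feedback genes moved in part. Of 19 tested 5 were higher and none lower (median 0.309). Ccnd2 (cyclin D2) had 54.6, 50.3 and 60.5 CPM with both cytokines, 59.1, 54.3 and 45.1 with GM-CSF, 33.3, 34.7 and 32 with IL-10 and 35.4, 28.7 and 33.4 untreated, so that the GM-CSF groups overlapped each other and no group without it (log2 fold change 0.76 ± 0.11, adjusted p = 0.000193). Socs1, another inhibitor of JAK kinases, had 72.1, 88.1 and 85.2 CPM with both cytokines against 42.6, 35.3 and 45.6 untreated (log2 fold change 0.99 ± 0.23, adjusted p = 0.0278). Socs3, Pim2 and Il2ra were the others, and Il2ra, the alpha chain of the IL-2 receptor, overlaps another annotated gene on its strand. The list count was 3 without untreated replicate 1 or 3 or replicate 3 with both cytokines, fits in which Il2ra and Socs1 were not called. The Socs1 call was lost without any 1 of the 6 libraries except replicate 1 with both cytokines (adjusted p up to 0.185, without untreated replicate 2). Cish, a STAT5 feedback gene, had 369.6, 378 and 375 CPM with both cytokines against 264, 307 and 316 untreated and was not called (adjusted p = 0.153), while its GM-CSF main effect was 0.44 ± 0.08 (adjusted p = 0.00169).

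**Figure D3:**
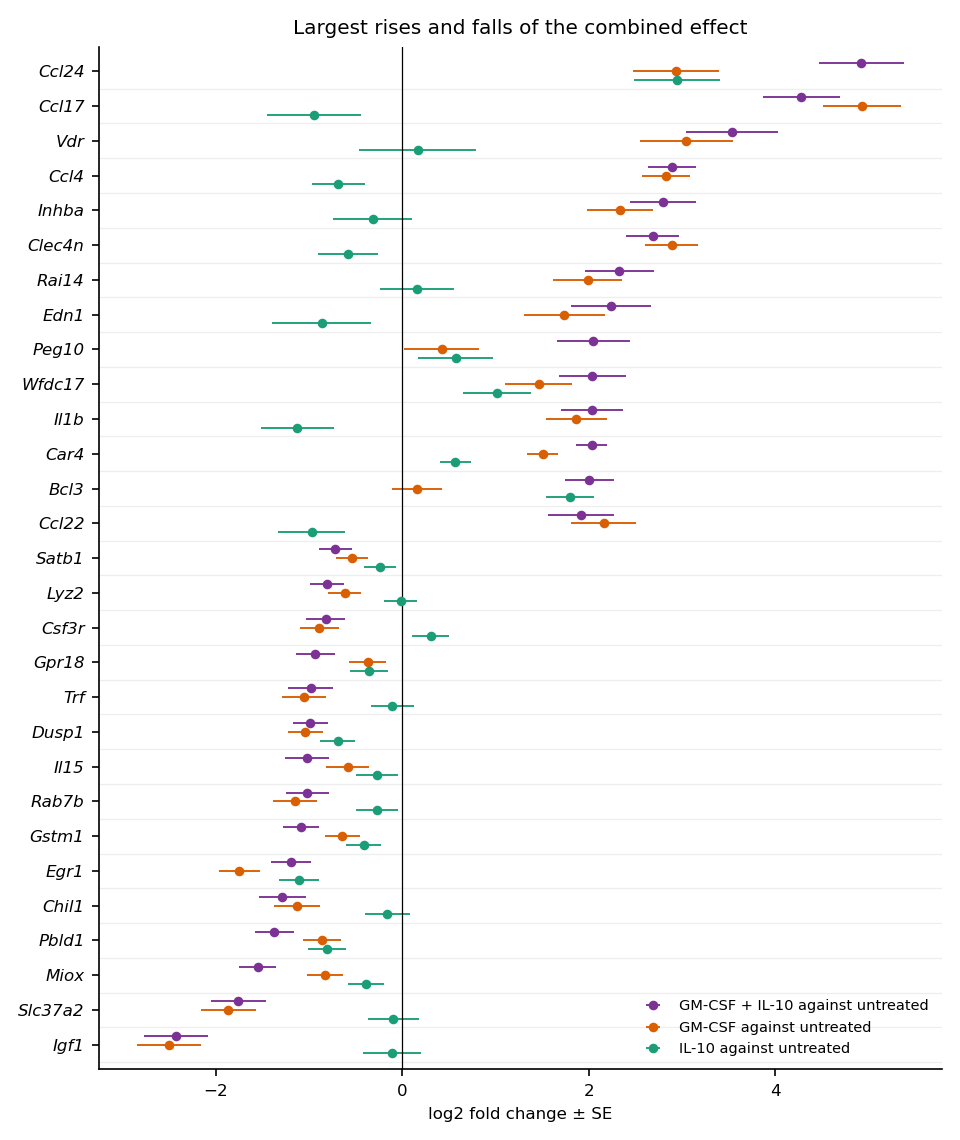
Log2 fold change ± SE against untreated cells of the 15 largest rises and 15 largest falls with both cytokines (purple), beside GM-CSF alone (orange) and IL-10 alone (green); Plet1 is left off because its untreated group held 1 count. Most rises lie near the GM-CSF value, Bcl3 lies near the IL-10 value, Peg10 and Wfdc17 lie above each single cytokine and Ccl24 lies beyond both; the 3 comparisons share the untreated libraries.

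A further set of the genes higher with the pair was called in the IL-10 main effect and not in that of GM-CSF. Of 26 tested IL-10 and STAT3 targets 7 were higher and 1 was lower, with a median of 0.31. Not all of these belong to that set. Il21r and the lower gene, Dusp1, were called in the GM-CSF main effect alone, and Socs3 in both main effects. Arid5a, Bcl3, Il4ra, Lrg1 and Sbno2 were called in the IL-10 main effect alone. Without untreated replicate 3 the list held 5 calls. The 21 genes higher with the pair and called in the IL-10 main effect alone were Arid5a, Atp13a2, Bcl3, Bst1, Casp4, Cd244a, Gk, Gm43181, Gpr15, Hp, Il1rl1, Il4ra, Jak3, Lrg1, Pim2, Prtn3, Rhoj, Sbno2, Tanc2, Tha1 and Vcan. The difference between the 2 main effects was not itself tested, and in Bst1, Il4ra and Vcan the GM-CSF main effect came near the threshold, with 0.56, 0.21 and 0.44 (adjusted p = 0.0665, 0.0664 and 0.0797). Of the 21, Gm43181 overlaps Fbxl5 on the same strand, and Casp4 has close paralogs, so their values are uncertain.

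Bcl3 (ENSMUSG00000053175, chromosome 7, 19808462 to 19822770) encodes a nuclear cofactor of NF-kB. It stood at 28.3, 40.1 and 21.1 CPM with both cytokines, 7.94, 7.46 and 9.55 with GM-CSF, 26.8, 27.1 and 23.5 with IL-10 and 5.36, 9.3 and 7.7 untreated. The 2 groups with IL-10 overlapped each other and lay above the 2 groups without it. Its combined log2 fold change was 2.01 ± 0.26 (adjusted p = 0.00011), with 1.82 ± 0.18 from IL-10 (adjusted p = 1.64e-05) and 0.18 ± 0.18 from GM-CSF (adjusted p = 0.668).

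Pim2 (ENSMUSG00000031155), a kinase that promotes survival, had 693, 868 and 452 CPM with both cytokines, 257, 208 and 329 with GM-CSF, 635, 645 and 587 with IL-10 and 196, 238 and 256 untreated. The groups with IL-10 did not overlap the groups without it, and the combined log2 fold change was 1.54 ± 0.28 (adjusted p = 0.00435). Jak3 (ENSMUSG00000031805), the kinase of receptors with the common gamma chain, had 133, 165 and 93.7 CPM with both cytokines, 39.5, 37.7 and 58.8 with GM-CSF, 115, 128 and 116 with IL-10 and 42.2, 55.5 and 52.7 untreated, in the same pattern (log2 fold change 1.38 ± 0.26, adjusted p = 0.00507). Jak3 overlaps Insl3 on the same strand. In Bcl3, Pim2 and Jak3 replicate 3 was again the lowest of the libraries with both cytokines. Lrg1, a secreted glycoprotein, had 13.3, 12 and 11.7 CPM with both cytokines against 5.42, 4.39 and 4.64 CPM untreated (log2 fold change 1.35 ± 0.26), and its call was lost without untreated replicate 2 or 3 (adjusted p = 0.0574 and 0.0501).

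Arid5a, an RNA-binding protein that stabilises cytokine messages, had 32.3, 28.2 and 28.9 CPM with both cytokines, 19.6, 21.9 and 18.2 with GM-CSF, 26.1, 24.7 and 29.1 with IL-10 and 18.5, 14.5 and 14 untreated (log2 fold change 0.93 ± 0.12, adjusted p = 0.000127). The type 2 receptor genes Il4ra, shared by IL-4 and IL-13, and Il1rl1, the receptor of IL-33, were part of this set. Il4ra had 162, 182 and 155 CPM with both cytokines, 133, 142 and 132 with GM-CSF, 152, 145 and 142 with IL-10 and 109, 119 and 119 untreated, and every treated library exceeded every untreated one (log2 fold change 0.52 ± 0.08, adjusted p = 0.000925). Il1rl1 had 352, 371 and 402 CPM with both cytokines, 262, 315 and 232 with GM-CSF, 371, 356 and 353 with IL-10 and 254, 249.9 and 232 untreated (log2 fold change 0.61 ± 0.15, adjusted p = 0.0367). The Il1rl1 call was lost when any 1 of the 6 libraries was left out, with adjusted p between 0.0567 and 0.188.

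Bst1, an ectoenzyme of myeloid cells that overlaps Fbxl5 on the other strand, had 16.2, 30.04 and 20.6 CPM with both cytokines against 5.75, 7.23 and 8.08 untreated (log2 fold change 1.67 ± 0.23, adjusted p = 0.000201). Casp4, the inflammatory caspase that senses cytosolic lipopolysaccharide, had 6.29, 6.84 and 5.14 CPM with both cytokines against 3.33, 3.19 and 2.32 CPM untreated (log2 fold change 1.04 ± 0.18, adjusted p = 0.0026). Cd244a, a receptor of the SLAM family, had 81.4, 89.4 and 84.5 CPM with both cytokines against 50.6, 60.8 and 57.6 CPM untreated, and Sbno2, a nuclear protein of the IL-10 response, 164, 170.2 and 168 CPM with both cytokines against 129, 131 and 122 CPM untreated, a call lost without untreated replicate 2 or 3 or replicate 2 with both cytokines. In these 4 genes, as in all called genes, no library with both cytokines overlapped an untreated one. The matrix proteoglycan gene Vcan had 27.5, 28.9 and 31.1 CPM with both cytokines against 16.7, 12.4 and 9.12 CPM untreated and the granule protease gene Prtn3 56.8, 50.3 and 43.5 CPM with both cytokines against 30.6, 20.1 and 22.8 CPM untreated. The Prtn3 call was lost without untreated replicate 2 or 3 or replicate 1 with both cytokines. The summed neutrophil marker list without its called members was 2852 to 3169 CPM with both cytokines and 3034 to 3261 CPM untreated.

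Stat3 (ENSMUSG00000004040), the factor through which IL-10 acts, was called for IL-10 and not for the pair. It had 300.00, 342 and 258 CPM with both cytokines, 209, 204 and 222 with GM-CSF, 351, 341 and 329 with IL-10 and 224, 247 and 231 untreated. The IL-10 main effect was 0.52 ± 0.08 (adjusted p = 0.00188), the GM-CSF main effect -0.16 ± 0.08 (adjusted p = 0.349) and the combined effect 0.36 ± 0.12 (adjusted p = 0.162). In all, 10 genes higher in the IL-10 main effect were not called with the pair against untreated, and of the GM-CSF main effect 124 higher and 53 lower genes were not. Among these falls Cd72, Clec4a1 and Tmem26 were the largest by the rule for named genes, with GM-CSF main effects of -1.56, -1.76 and -1.82. The IL-10 main effect of Tmem26 had the opposite sign, 0.571 to 1.09 over 22 alternative fits. It was called in 1 of these and not in the main fit. The receptor genes showed no call with the pair: Csf2ra averaged 73.8 ± 6.79 CPM with both cytokines and 56.4 ± 2.92 CPM untreated, Il5ra 52.9 ± 12.3 and 59.96 ± 10.4 CPM, Il10ra 137 ± 36.9 and 155 ± 19.7 CPM, and Il10rb 36.3 ± 2.83 and 39.97 ± 3.23 CPM (SD, n = 3 each). Nor were the shared beta chain genes Csf2rb and Csf2rb2 or the signalling genes Jak1, Tyk2, Stat5a and Stat5b called, with log2 fold changes of 0.10, 0.15, -0.12, -0.11, -0.21 and -0.30. Csf2ra was higher in the GM-CSF main effect (0.53 ± 0.10, adjusted p = 0.00251).

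**Figure D4:**
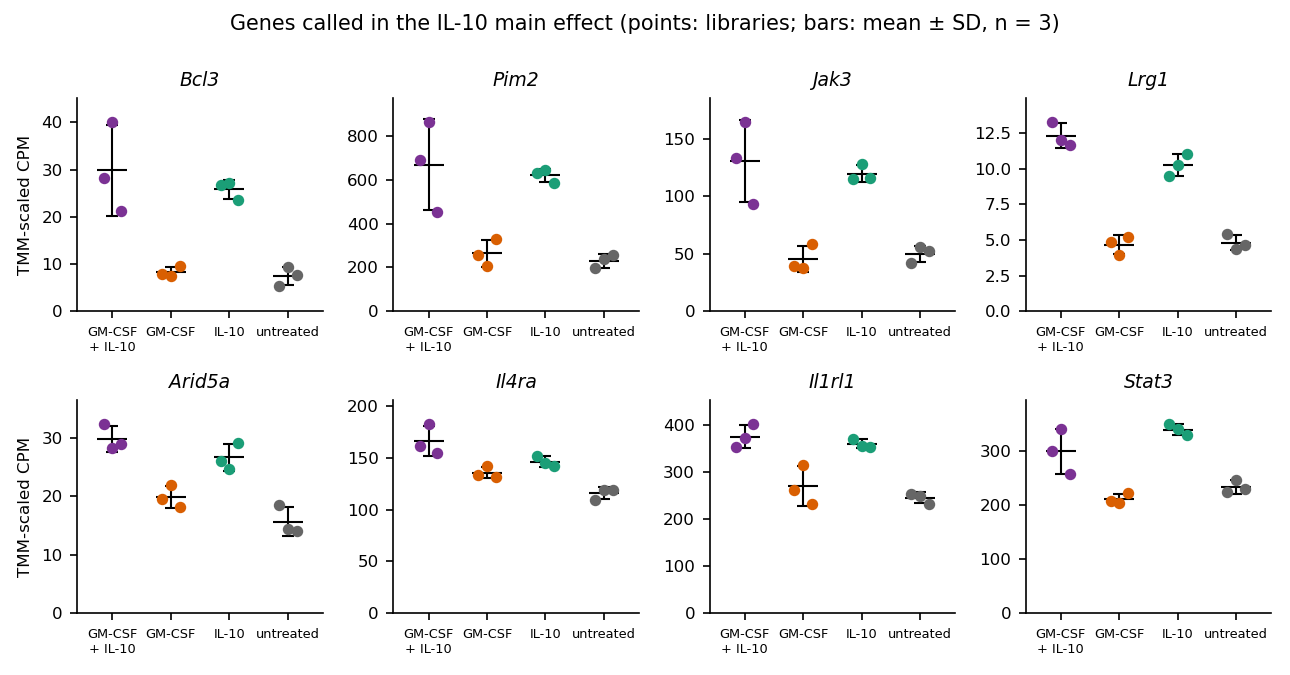
TMM-scaled CPM of 8 genes called in the IL-10 main effect, in the 4 wild-type groups (points are libraries, bars the mean ± SD of 3); every axis starts at 0. In all but Il4ra every library with IL-10 lies above every library without it; Stat3 was not called with both cytokines against untreated.

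Genes called with the pair and in neither main effect included Peg10, an imprinted gene derived from a retrotransposon. It had 24.1, 17.8 and 67.5 CPM with both cytokines, 11.4, 16.8 and 7.09 with GM-CSF, 10.6, 10.9 and 18.2 with IL-10 and 11.7, 6.03 and 8.6 untreated; replicate 3 with both cytokines stood far above every other library. Its combined log2 fold change was 2.05 ± 0.39 (adjusted p = 0.00692), and the call was lost without untreated replicate 2 or 3 and in the fits of the 12 wild-type or the 6 libraries alone. Without replicate 3 with both cytokines its log2 fold change was 1.24 (adjusted p = 0.0374). Batf, a partner of IRF4 on DNA, had 19.5, 20.1 and 20.1 CPM with both cytokines against 13.8, 10.3 and 12.5 CPM untreated (log2 fold change 0.70 ± 0.14, adjusted p = 0.00954), a call lost without untreated replicate 2. Pecam1, an adhesion molecule of leukocytes and endothelium, had 530.4, 532 and 581 CPM with both cytokines against 423, 399 and 402 CPM untreated (log2 fold change 0.42 ± 0.09), a call lost without untreated replicate 2 or 3 or replicate 3 with both cytokines. The other stromal and endothelial markers summed to 47.69, 39.07 and 75.42 CPM with both cytokines against 56.8, 46.96 and 43.02 CPM untreated, and Lum was at 0 in the 6 libraries.

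Of the genes lowered by the pair, Igf1 had the largest fall among those of at least 5 CPM in the higher group. Igf1 (ENSMUSG00000020053, chromosome 10, 87858265 to 87937042), insulin-like growth factor 1, had 3.18, 5.82 and 1.78 CPM with both cytokines, 3.49, 1.65 and 5.14 with GM-CSF, 21.4, 18.9 and 12.5 with IL-10 and 17.2, 20.5 and 19.3 untreated. The groups with GM-CSF lay far below the groups without it, and the combined log2 fold change was -2.43 ± 0.34 (adjusted p = 0.000225). Slc37a2, a sugar phosphate exchanger of macrophages, followed the same pattern, with 3.18, 4.95 and 3.51 CPM with both cytokines against 9.15, 15.5 and 14.7 untreated (log2 fold change -1.76 ± 0.29, adjusted p = 0.00132). Il15, a survival factor of lymphocytes, had 5.55, 4.87 and 3.77 CPM with both cytokines against 10.7, 8.01 and 9.79 CPM untreated, Csf3r, the receptor of G-CSF, 10.4, 8.87 and 7.18 CPM with both cytokines against 19, 13.3 and 14 CPM untreated, and Lyz2, lysozyme M, 150.5, 111 and 139.6 CPM with both cytokines against 292, 203 and 206 CPM untreated. Each of these 3 lost its call without untreated replicate 1 or replicate 2 with both cytokines, Il15 also without untreated replicate 3 or replicate 3 with both, and Csf3r without any 1 of the 6 libraries.

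Miox, which degrades inositol, had 9.4, 11.9 and 7.65 CPM with both cytokines, 16.1, 11.5 and 20.04 with GM-CSF, 22.1, 23 and 19.4 with IL-10 and 23.4, 29.6 and 31.5 untreated. Pbld1 had 5.85, 9.82 and 8.91 CPM with both cytokines, 9.03, 14 and 12 with GM-CSF, 13.2, 13.1 and 9.9 with IL-10 and 16.7, 22.6 and 24.6 untreated. In both genes the 3 treated groups lay wholly below the untreated libraries; the combined log2 fold changes were -1.55 ± 0.20 and -1.37 ± 0.21. Pbld1 came nearest to a call in both main effects among the falls, with a GM-CSF main effect of -0.71 (adjusted p = 0.00665) and an IL-10 main effect of -0.66 (adjusted p = 0.0506). The glutathione transferase gene Gstm1 had 10.6, 13.8 and 9.7 CPM with both cytokines against 20.2, 26.1 and 25.5 CPM untreated (log2 fold change -1.08 ± 0.19, adjusted p = 0.00274), the chitinase-like gene Chil1 3.77, 4 and 2.67 CPM with both cytokines against 7.78, 9.82 and 7.7 CPM untreated and the transferrin gene Trf 6.96, 7.13 and 5.45 CPM with both cytokines against 12.5, 13.3 and 12.6 CPM untreated. The Trf call was lost when any 1 of the 6 libraries was left out, and that of Chil1 without untreated replicate 2 or replicate 3 with both cytokines. Gpr18, a lipid-sensing receptor, had 4.51, 3.85 and 3.93 CPM with both cytokines against 8.23, 6.29 and 8.82 CPM untreated, Rab7b, a GTPase of late endosomes, 2.89, 3.56 and 2.73 CPM with both cytokines against 5.55, 6.72 and 6.28 CPM untreated, and Satb1, an organiser of chromatin that overlaps another annotated gene, 18, 19.9 and 12.6 CPM with both cytokines against 24, 27.5 and 31 CPM untreated. Each of these 3 lost its call without untreated replicate 3 and in at least 3 other fits.

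Of 21 immediate early transcription factors 1 was higher (Nr4a3) and 2 were lower (Egr1 and Btg2), with a median of -0.154; the Btg2 call was lost in 13 of 17 alternative fits. Egr1 (ENSMUSG00000038418), an early growth response factor, had 138, 132 and 162 CPM with both cytokines, 67.3, 109.6 and 118 with GM-CSF, 159.6, 169 and 129 with IL-10 and 244, 364 and 378 untreated. All 9 treated libraries lay below the untreated ones, and the libraries with both cytokines lay above those with GM-CSF alone. The combined log2 fold change was -1.19 ± 0.21 (adjusted p = 0.00343), against -1.74 ± 0.22 for GM-CSF alone and -1.11 ± 0.21 for IL-10 alone, the last not called (adjusted p = 0.0581). Dusp1, the phosphatase that switches off MAP kinases, had 29.8, 34.6 and 42.5 CPM with both cytokines against 53.2, 73.5 and 85.8 untreated (log2 fold change -0.99 ± 0.19, adjusted p = 0.00504); it was the 1 called of 14 DUSP and ZFP36 regulators, and its call was lost without untreated replicate 3 or replicate 1 with both cytokines.

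Whether the pair did more or less than the sum of its parts was tested by the interaction on the log2 scale. No gene was called by edgeR (149 genes, 1.25%, had an unadjusted p under 0.05), 1 was called by DESeq2 and 0 by limma-voom. Egr1 had the smallest p, with an interaction of 1.66 ± 0.30 (adjusted p = 0.216), the combined level lying above the sum of both falls. For Ccl24 the interaction was -0.96 ± 0.59, so that the pair gave 4.92 where the single effects of 2.94 and 2.95 sum to more, within an error that does not separate the 2. For Socs3 and Car4 it was 0.11 ± 0.29 and -0.05 ± 0.23.

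The same libraries show what each cytokine added to the other. GM-CSF added to IL-10 called 102 genes (0.858%), 86 higher (0.724%) and 16 lower (0.135%). IL-10 added to GM-CSF called 6 genes (0.0505%), all higher, namely Bcl3, Ccl24, Ffar2, Igf2bp2, Jak3 and Lrg1. Alone against untreated, GM-CSF called 66 genes (0.555%), 49 higher (0.412%) and 17 lower (0.143%), and IL-10 called 6 (0.0505%), all higher, namely Arid5a, Bcl3, Casp4, Ccl24, Cd244a and Gpr15. These comparisons share libraries with each other and with the combined one, so their calls are not independent.

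Several programmes held no call with the pair. These were glycolysis and hypoxia (23 tested, median -0.137), cell cycle and DNA replication (25, median 0.158), ribosome biogenesis (25, median 0.327), interferon-stimulated genes (19, median -0.00788), leukotriene and prostanoid synthesis (13, median 0.1) and metallothionein and antioxidant genes (16, median 0.00822). Ptgs2, the inducible cyclooxygenase, came near with a log2 fold change of 1.29 (adjusted p = 0.0513). Lipid uptake and cholesterol genes had 1 higher, Fabp5, and 2 lower, Plin2 and Pparg, of 26; these calls were lost in 5, 10 and 12 of 17 alternative fits, untreated replicates 2 and 3 among the libraries left out in each case. Of 25 apoptosis regulators 2 were higher, Casp4 and Bcl2a1d, and Bcl2a1d belongs to a family of near-identical genes whose values are uncertain. In NF-kB targets 5 of 23 were higher (Cxcl2, Bcl3, Ccl4, Bcl2a1d and Cd40), with a median of 0.189. Adhesion genes had 3 of 21 higher, JAK and STAT genes 1 of 11, and the integrated stress response list 1 of 20.

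**Figure D5:**
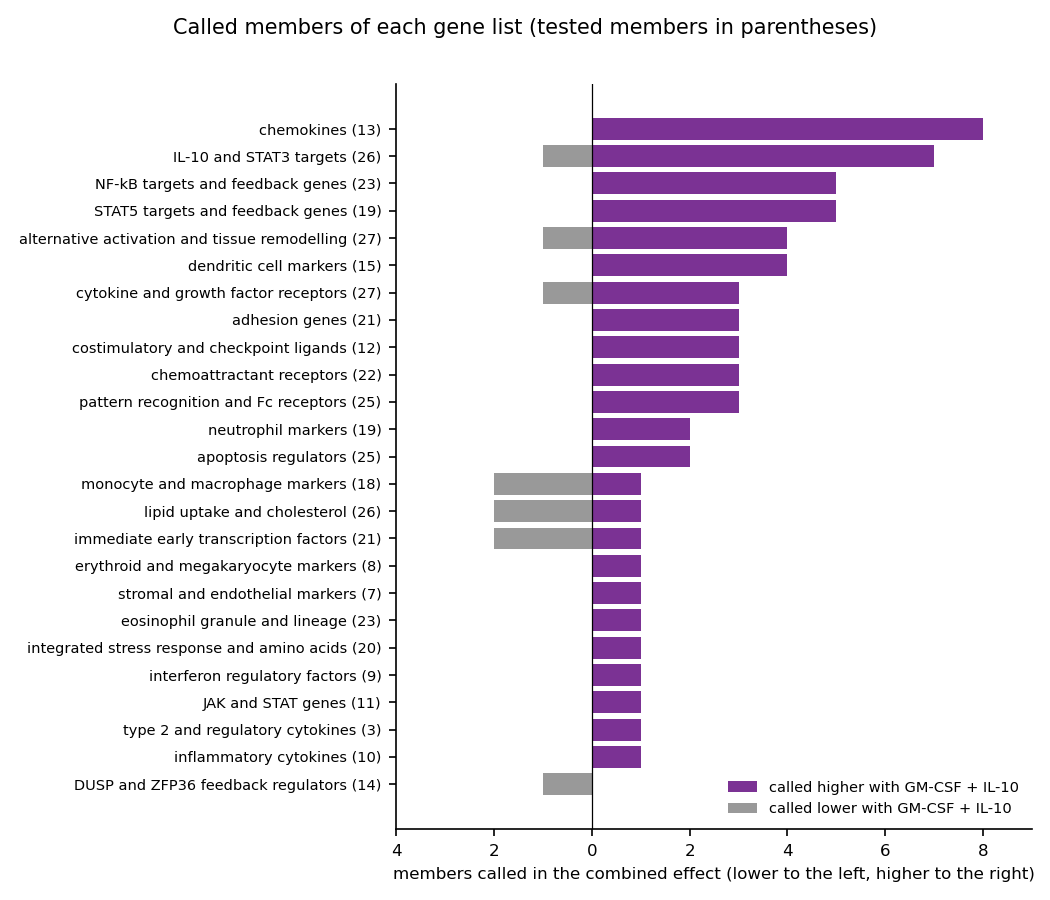
Number of members of each gene list called higher (purple, to the right) or lower (grey, to the left) with both cytokines against untreated; tested members are in parentheses, and lists with no call are left off. Chemokines lead with 8 of 13 higher, followed by IL-10 and STAT3 targets with 7 of 26.

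Eosinophil granule and lineage genes held 1 call of 23 tested, Il1rl1, with a median of -0.0273; their summed level was 79320 to 82570 CPM with both cytokines and 77740 to 82860 CPM untreated. Ccr3, the receptor of Ccl24, had a log2 fold change of -0.46 (adjusted p = 0.284). Of 18 monocyte and macrophage markers 1 was higher (Vcan) and 2 were lower (Lyz2 and Cx3cr1); the list summed to 1750 to 1864 CPM with both cytokines and 1882 to 2059 CPM untreated, and to 1584 to 1689 against 1669 to 1742 CPM without those 3, with Marco at 0. Neutrophil markers had 2 of 19 higher, Cxcr2 and Prtn3. None of 9 tested mast cell and basophil markers and none of 6 of T, B and NK cells was called, and Car2 was the 1 of 8 erythroid and megakaryocyte markers. The Cx3cr1 call was lost without untreated replicate 1 or replicate 1 or 2 with both cytokines, and that of Car2 without untreated replicate 2 or 3 or replicate 1 with both. Mrc1, the mannose receptor of macrophages, had 22.3, 61.1 and 8.61 CPM with both cytokines and 16 to 22.2 CPM untreated. With IL-10 alone Mrc1 had 90.4, 69.6 and 36.2 CPM, and with GM-CSF alone 6.36, 1.86 and 17.2 CPM. Vcan was the 1 monocyte and macrophage marker called in the IL-10 main effect, so Mrc1 was not called in it nor, therefore, in both main effects. The part of other cell types in these results was not tested.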

How the data were processed

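RNA was sequenced as stranded mRNA libraries, per the labels' protocols. Each deposited file holds raw counts of reads per gene, whole numbers as the authors left them; STAR, featureCounts and GRCm38.p6 are named in the submitters' processing notes, and neither versions nor strand setting nor the treatment of reads that match more than 1 gene could be read from those notes. Of 25746 genes, 11885 passed edgeR's default filter on low counts. The main test was edgeR 4.0.16 (R 4.3.3), robust quasi-likelihood on TMM-scaled counts, with 8 group means over all 24 libraries; the common coefficient of biological variation came to 14.1%. Rows without a gene symbol took 0.019% of counts. DESeq2 1.42.0, limma-voom (limma 3.58.1), other filters, scalings and library sets, and leaving out each library were alternatives. Counting intervals are exact, at 95%, and cover counting error only. Gene names and coordinates are from the GENCODE annotation of GRCm38; of 178 called genes 19 overlap another gene on the same strand and are uncertain. Named genes are, with at least 5 CPM in the higher group, no overlap of libraries and predicted models left out, the top 15 in each direction by fold change, all genes called in both main effects, up to 5 per main effect and direction, up to 4 called per list by smallest p, and fixed receptor and signalling genes; 10 further genes with values were chosen after their values were seen. Members and lists were chosen with earlier results of these data known. Promoter sequences are from RefSeq on GRCm38.p6.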

Additional observations from a re-analysis of the deposited data

How the results depend on the processing

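Of the 82 genes named as called with both cytokines, none changed direction in any of 17 alternative fits. Such a change was hardly possible, because treated and untreated libraries did not overlap in any called gene, so its absence adds no support. The call was kept by 82 with DESeq2, 79 with limma-voom and 75 with the 12 wild-type libraries. It was kept by 64 with the 6 libraries compared and by 54 without untreated replicate 2 or without untreated replicate 3. The combined count was 296 (199 higher, 97 lower) with DESeq2, 117 (98 and 19) with the 6 libraries alone, and 75 to 162 when 1 library was left out, lowest without untreated replicate 3 and 80 without untreated replicate 2. It was 152 to 209 in the other fits. The GM-CSF count was 495 (330 and 165) with DESeq2, 200 without replicate 3 with both cytokines and GM-CSF replicate 2, a choice made after seeing the data, and 188 to 402 with 1 library left out. The IL-10 count was 87 (69 and 18) with DESeq2 and 26 to 50 with 1 library left out. The interaction count was 1 with DESeq2 and 0 to 0 with 1 library left out. Genes moved the same way numbered 19 with DESeq2, 6 with the 12 wild-type libraries, 4 without those 2 libraries and 2 to 9 with 1 library left out. With the 12 wild-type libraries Ada, Car4, Pdia4 and Socs3 lost the IL-10 call (adjusted p = 0.136, 0.0987, 0.064 and 0.0812). Without untreated replicate 1 they numbered 9, of which 5 were among the 9 of the main fit. Y-linked level as 2 classes also gave 9, with 5 shared. Defined by calls against untreated for each cytokine alone, or by calls for each added to the other, genes moved the same way were 1 and 1, Ccl24 in both. Genes moved in opposite directions numbered 3 with DESeq2, 2 with limma-voom, 0 with the 12 wild-type libraries, 0 and 0 under those definitions, 0 without those 2 libraries, 3 with Y-linked level as 2 classes, also chosen after seeing the data, and 0 to 2 with 1 library left out. The cause of these shifts was not tested, except that fits with fewer libraries hold fewer samples. No paired analysis was possible because the labels do not tie a library of one group to a library of another. Depth limits genes with few counts, such as Plet1, Rbp4 and Htr7, to ratios with wide intervals.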

Other observations

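The fatty acid receptor gene Ffar4, called with both cytokines and outside the naming rule, held 36 counts with both cytokines and 2 untreated, a depth-corrected ratio of 16 with an exact 95% interval of 4.12 to 137. It was named after its values were seen.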
